A study of Mus musculus with 16 samples.

Results

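The genes described here belong to the fibroblast growth factor (FGF) pathway: the ligands Fgf4, Fgf5, Fgf15 and Fgf17, the receptors Fgfr1 and Fgfr2, and the feedback genes Spry2, Spry4 and Dusp6. Members were taken by name, as every probe whose gene name in the array files equals 1 of the 9 symbols. This gave 15 of the 41174 probes and 8 of the 9 genes, because no probe carried the name Fgf4, which was therefore not analysed here. All 15 probes passed the filter on dim signals, which asked for a signal well above background on at least 1 of 16 arrays, and 10 of them were well above background on all 16.

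The arrays measured total RNA of mouse cells in a study that made induced pluripotent stem (iPS) cells with human artificial chromosomes, which stay outside the host chromosomes. All iHAC1-iPS clones (1-A3, 1-B, 1-C3, 1-D6) and iHAC2-iPS clones (2-B1, 2-C6, 2-E, 2-N) came from C57BL/6 embryonic fibroblasts and kept their vector. The iHAC1 vector holds Klf4, c-Myc, Sox2 and Oct4 in 2 copies each under the CAG promoter, and iHAC2 adds a p53 knockdown cassette and 2 further Oct4 copies. The 4 iHAC-free iPS lines were sorted as EGFP-negative cells after spontaneous loss of iHAC2, F-B1 from 2-B1, F-C5 from 2-C6, F-E4 from 2-E and F-N7 from 2-N. Controls were the embryonic stem (ES) lines B6ES (C57BL/6) and TT2 (C57BL/6 x CBA). A retroviral iPS line, 20D17 (C57BL/6 x DBA), and C57BL/6 mouse embryonic fibroblasts (MEF) had 1 array each and are given as values with no test. Each array is 1 clone or line, so every error and p-value below measures the spread between clones or lines. Both the ES lines and the clones were kept on MEF feeder layers with leukemia inhibitory factor, and feeder cells may be part of the RNA.

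FGF ligands bind receptor tyrosine kinases with heparan sulfate as a cofactor and activate the Ras-ERK cascade. In mouse ES cells this signal, driven largely by autocrine FGF4, moves cells from naive pluripotency toward lineage commitment, whereas leukemia inhibitory factor sustains self-renewal. Sprouty proteins and the ERK phosphatase DUSP6 are transcribed in response to ERK and dampen it, so their transcripts are commonly read as markers of pathway activity.

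Levels are log2 signals after subtraction of each array's own 75th percentile, so a step of 1 is a 2-fold difference, and levels of different probes are not comparable. A gene was called when its adjusted p in the limma fit over 31415 probes was below 0.05 (Benjamini-Hochberg) and its difference at least 2-fold. Where a gene had several probes, the brightest over the 16 arrays stood for the gene and the others are given beside it. Spots well above background made up 54.2% to 65.8% of each array, with 0 saturated. The ES, 20D17, MEF and iHAC1-iPS arrays were read with 1 version of the scanner software and all iHAC2-iPS and iHAC-free iPS arrays with another, so software version and group cannot be told apart in 3 of the 5 comparisons, which are iHAC2-iPS against ES, iHAC-free iPS against ES and iHAC1-iPS against iHAC2-iPS. Groups in these 3 comparisons shared no slide either. MEF, 1-A3, 1-B and 1-C3 were on slide 1, and both ES lines, 20D17 and 1-D6 on slide 2. In iHAC1-iPS against ES cells, slide and group can thus be told apart only through 1-D6. The iHAC2-iPS and iHAC-free iPS arrays were on slides 3 and 4, with both groups on each.

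Among the 8 genes, Fgf17 and Spry2 were called lower in iHAC1-iPS cells than in the ES lines, and Fgfr2 was called lower in iHAC2-iPS cells than in both ES and iHAC-free iPS cells. Fgf17 was also called lower in iHAC1-iPS than in iHAC2-iPS cells. Of these calls, only that of Fgf17 against ES cells was kept in every alternative fit that tested its probe. The others were lost in some alternatives, which are given with each gene below. On the brightest probes, none of the 8 was called higher in any of the 5 comparisons, and none differed between iHAC-free iPS and ES cells by the call. In that comparison limma gave 0 of the 8 genes at an unadjusted p below 0.05, beside 6386 of all 31415 probes. Among the other probes, A_52_P136162 of Fgfr1 was called higher in iHAC1-iPS than in iHAC2-iPS cells, and A_51_P250422 of Spry4 lower. A_51_P445153 of Spry2 was called lower in iHAC-free iPS than in ES cells. Because the RNA was taken from bulk cultures, fewer cells that express a gene and less RNA per cell cannot be told apart.

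**Figure D1:**
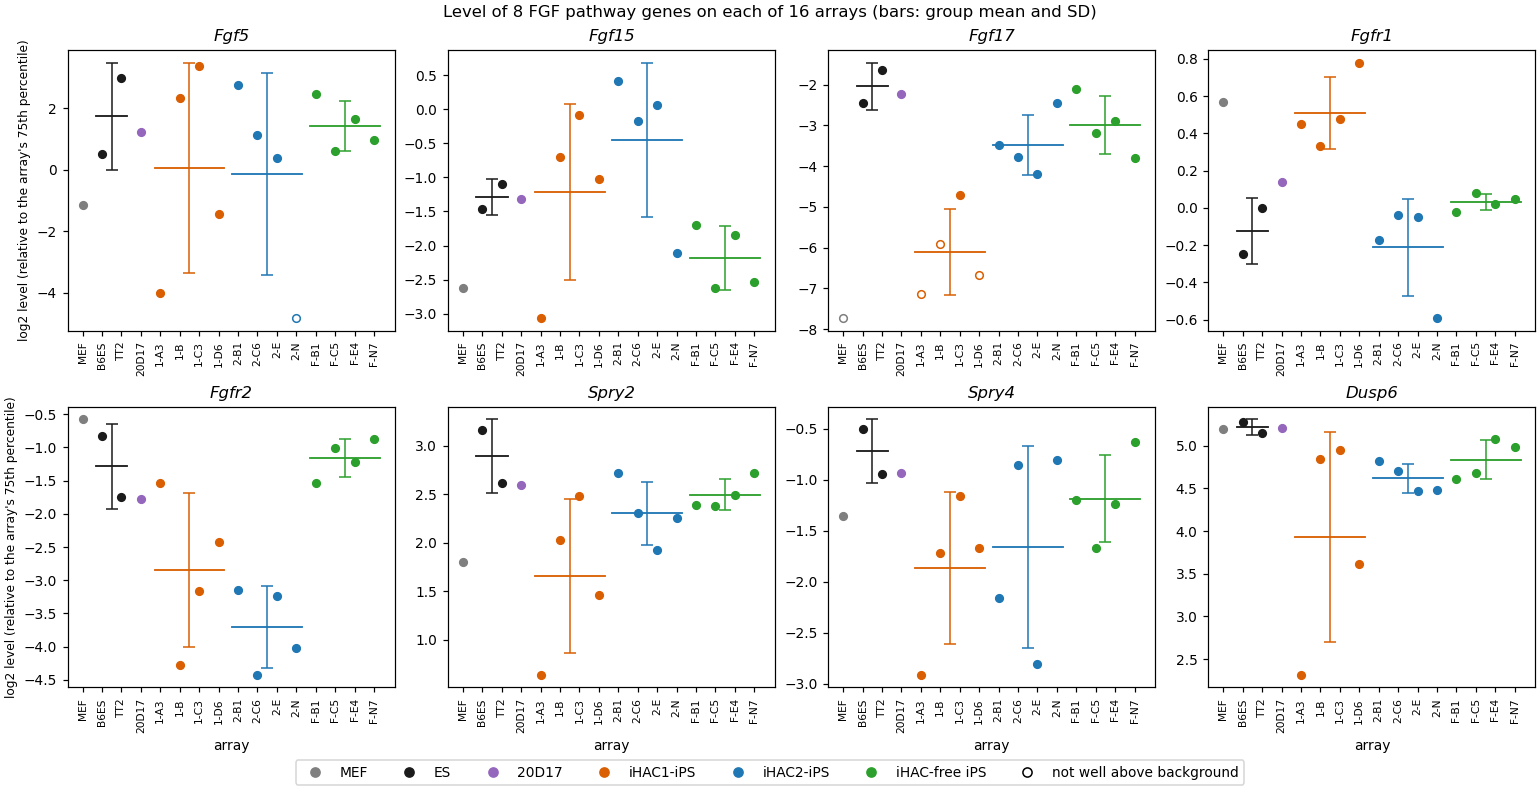
Level of each gene's brightest probe on the 16 arrays (log2, relative to the 75th percentile of the array). Points are arrays, bars are the mean and SD of groups with more than 1 array, and open points were not well above background. Fgf17 lay at -4.71 or below in the 4 iHAC1-iPS clones and Fgfr2 at -3.15 or below in the 4 iHAC2-iPS clones.

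Read against the whole array, 2 of 8 genes were called lower in iHAC1-iPS than in the ES lines where 7.13% of all probes were, and 0 were called higher where 7.17% were. In iHAC2-iPS against ES cells 1 gene was called lower (3.28% of all probes) and 0 higher (3.52%). The iHAC-free iPS cells against ES cells gave 0 genes in either direction (0.188% of all probes higher, 0.175% lower). In iHAC2-iPS against iHAC-free iPS cells 1 gene was called lower (0.605%) and 0 higher (0.213%), and in iHAC1-iPS against iHAC2-iPS cells 1 was called lower (11%) and 0 higher (8.98%). The median difference of the 8 genes was -1.26 in iHAC1-iPS against ES cells, beside 0.0409 over all probes, and -0.768 in iHAC2-iPS against ES cells, beside 0.055. For the iHAC-free iPS cells against ES cells it was -0.385, beside 0.0312. The comparisons against ES cells share the same 2 ES arrays.

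**Figure D2:**
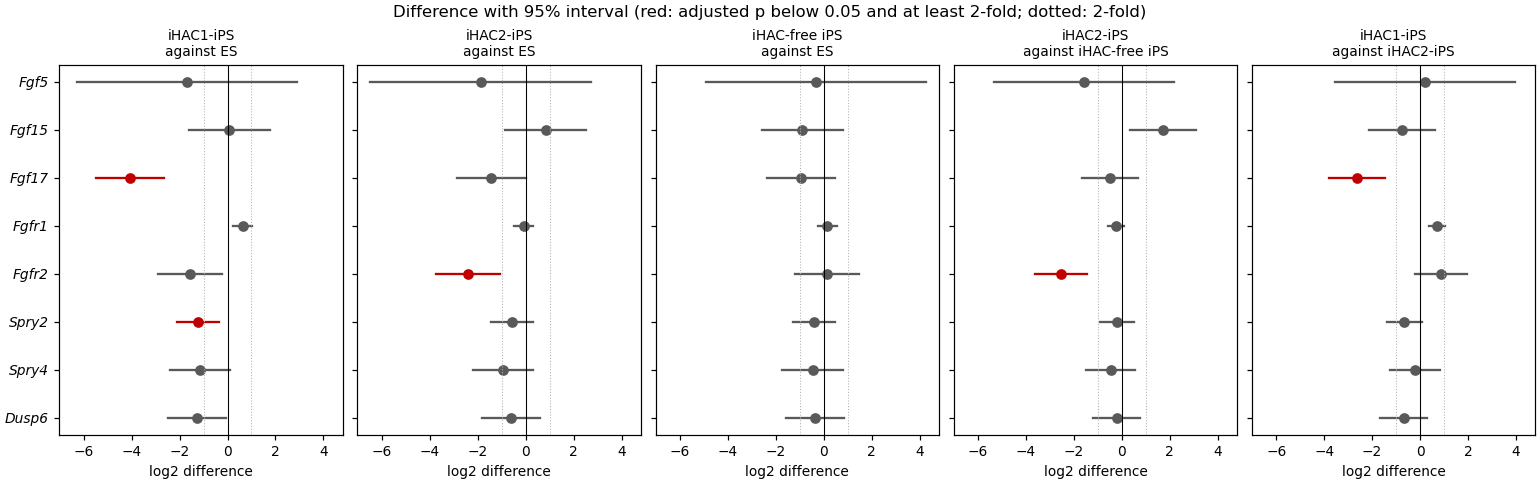
Log2 difference of each gene (point) with its 95% interval (line) in the 5 comparisons, first group minus second. Red marks the called differences, namely Fgf17 and Spry2 in iHAC1-iPS against ES, Fgfr2 in iHAC2-iPS against ES and against iHAC-free iPS, and Fgf17 in iHAC1-iPS against iHAC2-iPS, and Fgf5 has the widest intervals.

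Fgf17, a ligand of the same subfamily as Fgf8, gave the largest difference among the 3 member ligands measured. It was read by a single probe. Its levels were -2.45 in B6ES and -1.63 in TT2, and -7.14, -5.92, -4.71 and -6.67 in 1-A3, 1-B, 1-C3 and 1-D6. Of the 4 iHAC1-iPS clones, 1-C3 alone had a signal well above background, and MEF at -7.72 did not. The iHAC1-iPS clones did not overlap with the ES lines. Their mean was 4.07 lower on the log2 scale (SE 0.66, a log2 difference of -4.07, adjusted p = 0.00164 in limma), a size that rests on 3 clones not well above background and is therefore given no fold. It was -3.22 with dim values raised to the lowest signal well above background and -1.25 (adjusted p = 0.00431) under normexp background correction. Within the only slide that held both groups 1-D6 lay at -4.63 relative to the mean of the ES lines.

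The iHAC2-iPS clones stood between these groups, at -3.49, -3.78, -4.18 and -2.46 in 2-B1, 2-C6, 2-E and 2-N. All 4 lay above the iHAC1-iPS clones, which were lower than them by a log2 difference of -2.63 (SE 0.54, limma adjusted p = 0.00325), or -1.78 with dim values raised. This call was lost under normexp correction, where the difference was -0.58 with an adjusted p of 0.0502. Among the iHAC-free lines F-N7 was lowest at -3.80 and F-B1 highest at -2.10, with -3.18 in F-C5 and -2.89 in F-E4, and 20D17 gave -2.22. By group mean, Fgf17 ran from ES (-2.04 ± 0.58, SD, n = 2) through 20D17 and iHAC-free iPS (-2.99 ± 0.71, n = 4) to iHAC2-iPS (-3.48 ± 0.74, n = 4) and iHAC1-iPS (-6.11 ± 1.06, n = 4), with MEF last. In that order, the iHAC-free iPS and iHAC2-iPS lines overlapped and differed by -0.48 (95% interval -1.66 to 0.69), and the iHAC-free iPS and ES lines overlapped as well.

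The 3 genes whose levels followed Fgf17 most closely over the 16 arrays were Zfp42 (r = 0.971), Pla2g1b (r = 0.963) and Dppa2 (r = 0.961), Zfp42 and Dppa2 being genes of the naive pluripotent state. These are Pearson correlations over arrays that share clones, slides and software versions, ranked among 14589 genes, and are given as a description. The mean level of 10 naive pluripotency markers ran from -2.11 to -0.0679 over the iHAC1-iPS clones (7 to 10 of them well above background), from 2.28 to 4.17 over the iHAC2-iPS clones, from 3.99 to 4.12 over the iHAC-free iPS lines and from 3.95 to 4.18 over the ES lines. Zfp42 itself is 1 of these 10, and whether the marker state has a part in the Fgf17 difference was not tested.

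Fgf5, a ligand whose transcription marks the primed epiblast, varied more between clones of 1 group than between groups. B6ES and TT2 gave 0.51 and 2.97. The iHAC1-iPS clones gave -4.01, 2.33, 3.37 and -1.45, and the iHAC2-iPS clones 2.76, 1.12, 0.38 and -4.82, the last from 2-N and not well above background. In both groups the clones thus spread over more than 7 log2 units, while the iHAC-free iPS lines lay between 0.61 and 2.46, with F-N7, derived from 2-N, at 0.96. No comparison was called (standard errors 1.73 to 2.11), and the difference of iHAC1-iPS from ES cells was -1.69 with a 95% interval of -6.28 to 2.91, so large differences in either direction could not be detected.

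The genes closest to Fgf5 over the 16 arrays were Zic2 (r = 0.946), Ucma (r = 0.899) and Wnt3 (r = 0.878), and Zic2 is a transcription factor of the formative and primed epiblast. Zic2 is also among 10 formative and primed epiblast markers, which hold Fgf8 but not Fgf5 and whose mean level was -1.73, 0.113, 1.41 and -1.60 in 1-A3, 1-B, 1-C3 and 1-D6. The clones 1-B and 1-C3, high for Fgf5, were thus also the higher ones for the mean of this list. Otx2, Lef1 and Sall2 did not follow that order, with -1.11, 0.05 and 0.59 in 1-B below 1.11, 1.08 and 1.17 in 1-A3. Each other gene of the list was higher in 1-B and 1-C3 than in 1-A3 and 1-D6. In 2-N the mean of the epiblast markers was -1.82, the lowest of the iHAC2-iPS clones, while its naive marker mean of 4.17 was the highest of them.

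Fgf15 encodes a ligand that the intestine secretes as a hormone and that embryonic neural tissue expresses. Its levels were -1.47 and -1.10 in the ES lines, and 0.42, -0.17, 0.06 and -2.11 in 2-B1, 2-C6, 2-E and 2-N. In the iHAC-free lines derived from them the levels were -1.70, -2.63, -1.85 and -2.53. Each iHAC2-iPS clone was above its own iHAC-free line, by 2.12, 2.46, 1.91 and 0.424 on the log2 scale, the smallest difference being in the pair of 2-N and F-N7. The mean difference was 1.73 (SE 0.63, 95% interval 0.35 to 3.11) with an unadjusted p of 0.0183 and a limma adjusted p of 0.188, so it was not called. Without 2-N the difference was 2.28 with an adjusted p of 0.0428, and without 2-B1 it was 1.44 (adjusted p = 0.313).

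The iHAC1-iPS clones ranged from -3.06 in 1-A3 to -0.08 in 1-C3 and overlapped with the ES lines. A probe that the array files name AK052093, and describe as an Fgf15 cDNA, is not a member by name and lies at chr7:152083752-152083811 (mm9), upstream of the Fgf15 probe at chr7:152086371-152086430. It gave -0.51, -1.58, -1.74 and -4.12 in the iHAC2-iPS clones and -2.89, -3.53, -2.90 and -3.61 in the iHAC-free iPS lines. Here too 2-N was the lowest of the iHAC2-iPS clones, and below F-N7. The genes closest to Fgf15 were Nefl (r = 0.926), Cyp2b13 (r = 0.92) and Cyp2b9 (r = 0.908), a neurofilament subunit and 2 cytochrome P450 genes.

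Of the receptors, Fgfr2, which is prominent in the primitive endoderm and in epithelia, was called on its brightest probe and Fgfr1, the main FGF receptor of the epiblast, was not. Fgfr2 had 3 probes, all on the minus strand of chromosome 7. The brightest, A_52_P363110 (chr7:137306712-137306771), starts 743 bases from A_51_P432403 (chr7:137307455-137307514) and 79254 bases from A_52_P158800 (chr7:137385966-137386025). The first 30 bases of the first pair and the whole of the third are printed because the call rests on the first pair, while the third was well above background on only 3 arrays.
A_52_P363110: gaggactagttaatctattgcttggactta
A_51_P432403: ctgcctcagtatccacacataaacggcagt
A_52_P158800: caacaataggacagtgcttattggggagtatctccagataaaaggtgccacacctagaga

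On the brightest probe the ES lines gave -0.83 and -1.74 and the iHAC2-iPS clones -3.15, -4.42, -3.23 and -4.02. The iHAC-free lines derived from these clones gave -1.53, -1.01, -1.22 and -0.88, inside the range of the ES lines. Every iHAC2-iPS clone lay below every ES and every iHAC-free iPS line. Against ES cells the iHAC2-iPS clones differed by -2.42 (SE 0.61, 5.35-fold lower, limma adjusted p = 0.0289), and the call was lost without B6ES (adjusted p = 0.207), without TT2 (0.0907) and with the compared groups alone in the fit (0.122).

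Against their own iHAC-free lines the iHAC2-iPS clones differed by -2.55 (SE 0.50, 5.85-fold lower, limma adjusted p = 0.0339). The difference was negative in 4 of 4 pairs, -1.62, -3.42, -2.01 and -3.14 for 2-B1, 2-C6, 2-E and 2-N, and within the 2 slides that held these arrays it was -2.38 and -2.72. A block on the line of origin gave the same difference an adjusted p of 0.0894, and a block on the slide 0.0656, so the call did not hold. Leaving out 1 array at a time gave -2.73 to -2.31, and the adjusted p stayed below 0.05 only without 2-N. Between iHAC-free iPS and ES cells the difference was 0.13 (95% interval -1.20 to 1.46).

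The second probe, printed on 10 spots whose log2 values had an SD of 0.0968 to 0.509 within an array, gave the same order. It read -5.38, -6.83, -5.32 and -6.81 in the iHAC2-iPS clones, none of them well above background, against -3.37 and -4.34 in the ES lines and -4.51 to -3.46 in the iHAC-free lines. The iHAC2-iPS clones were at least 1.82-fold lower than ES cells (adjusted p = 0.0356) and at least 1.87-fold lower than iHAC-free iPS cells (adjusted p = 0.0494, limma), as bounds from the lowest signal well above background. These calls were lost under normexp correction (-0.46 and -0.31) and with dim values raised (-0.87 and -0.90). Against ES cells the call was also lost with the compared groups alone (adjusted p = 0.152) and without B6ES (0.241), TT2 (0.0983) or 2-N (0.053). Against iHAC-free iPS cells it was also lost without the filter on dim probes (0.0553), with a slide block (0.0937) and with a line block (0.103). There it was lost too with the compared groups alone (0.0845) and without any single array other than 2-N. The third probe was well above background only in MEF, 1-D6 and F-N7 and was not called in any comparison.

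**Figure D3:**
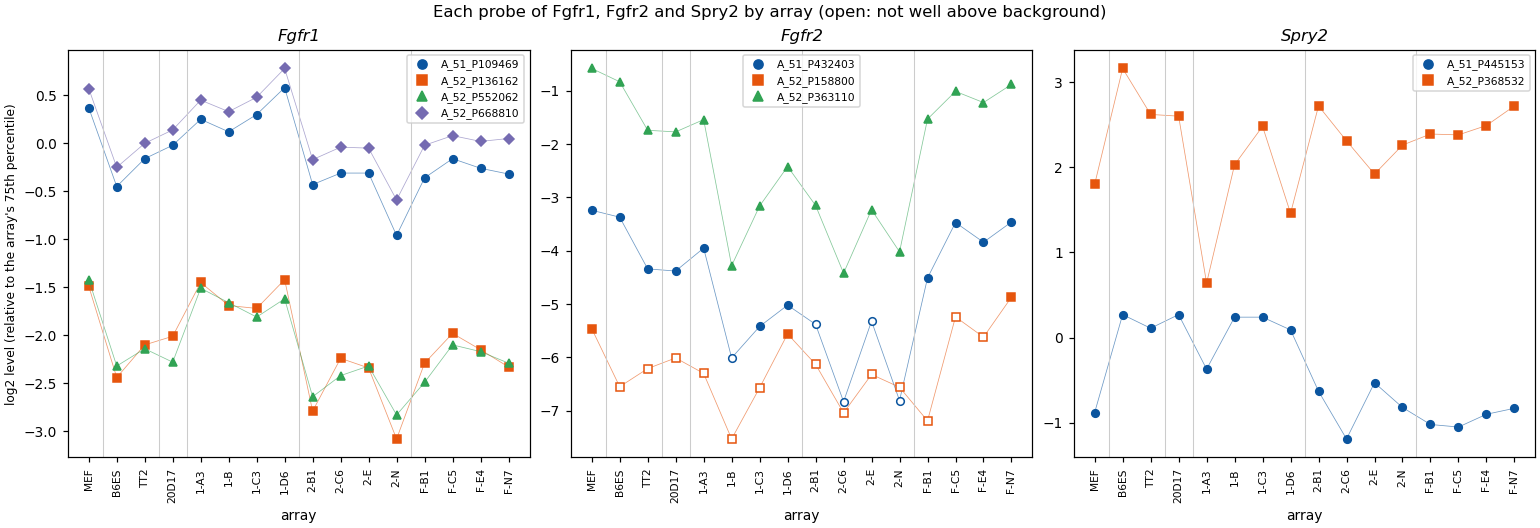
Levels of every probe of Fgfr1 (4), Fgfr2 (3) and Spry2 (2) on the 16 arrays, open points not being well above background and grey lines separating the groups. The Fgfr1 probes move together, the A_52_P363110 and A_51_P432403 probes of Fgfr2 are lowest in the iHAC2-iPS clones, 1-B and 1-C3, and the Spry2 probes part between 1-D6 and 2-B1.

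The iHAC1-iPS clones spread widely for Fgfr2, with -1.54 in 1-A3, -4.28 in 1-B, -3.16 in 1-C3 and -2.42 in 1-D6. They overlapped with the ES lines, and the difference of -1.56 (95% interval -2.89 to -0.23, limma adjusted p = 0.0891) was not called. By group mean the order was MEF (-0.58), iHAC-free iPS (-1.16 ± 0.28, SD, n = 4), ES (-1.29 ± 0.64, n = 2), 20D17 (-1.77), iHAC1-iPS (-2.85 ± 1.16, n = 4) and iHAC2-iPS (-3.71 ± 0.62, n = 4). The first 4 of these cannot be separated by their spread, and the last pair overlapped. Of 10 primitive endoderm markers, 8 were tested. Their mean levels were -5.11 to -2.91 in the iHAC2-iPS clones and -3.63 to -2.13 in the iHAC-free iPS lines. In these groups 4 to 6 and 6 of the 8 were well above background. The ES lines gave means of -3.12 and -1.92. Among the iHAC1-iPS clones the mean did not follow Fgfr2, with -4.77, -3.82, -2.31 and -3.6 in 1-A3, 1-B, 1-C3 and 1-D6. Single genes did not all follow the group means, with Ttr at 0.20 in 2-N and -6.98 in F-N7. The part of these markers in the Fgfr2 difference was not tested. Genes closest to Fgfr2 over the arrays were Fam171b (r = 0.9), Fech (r = 0.886) and Dact1 (r = 0.875).

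**Figure D4:**
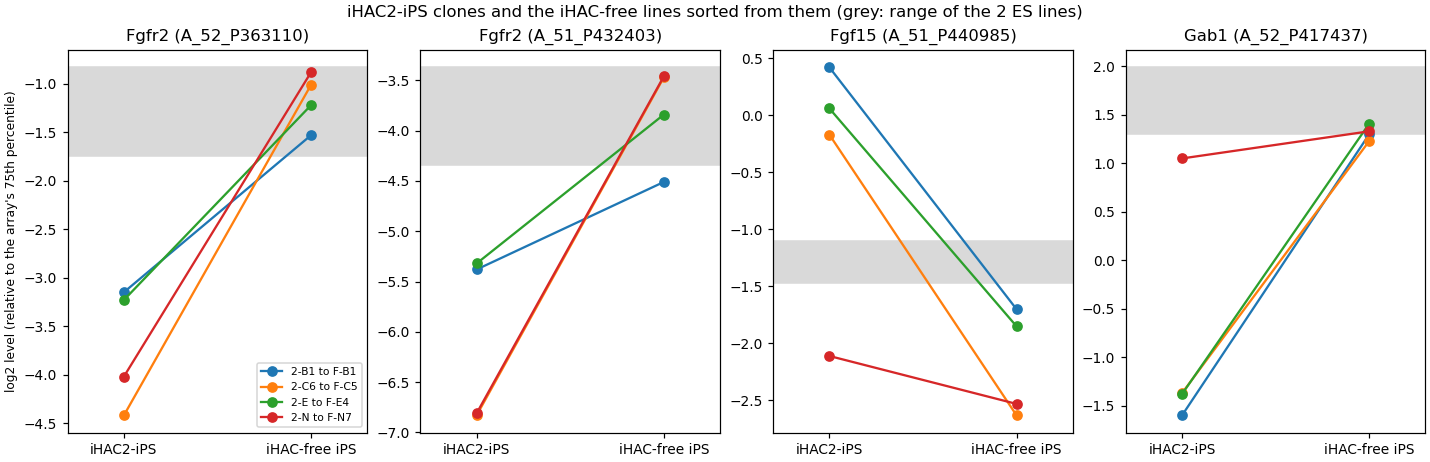
Levels in each iHAC2-iPS clone and in the iHAC-free line sorted from it, for 2 probes of Fgfr2, for Fgf15 and for the adaptor Gab1, with the range of the 2 ES lines in grey. Fgfr2 is higher in the iHAC-free line of all 4 pairs, Fgf15 is lower in all 4, and Gab1 in 2-N (1.05) already lies beside F-N7 (1.33).

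Fgfr1 had 4 probes on the plus strand of chromosome 8, at chr8:26642756-26642815, chr8:26680165-26680224, chr8:26684042-26684101 and chr8:26684063-26684122 (mm9). The last pair overlaps by 39 bases with 1 difference, A57G, counted from the 5′ end of A_51_P109469 and set in capitals below. The pair is shown because the probes share most of their target and are not independent readings.
A_51_P109469: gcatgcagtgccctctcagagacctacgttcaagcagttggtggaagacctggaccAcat
A_52_P668810: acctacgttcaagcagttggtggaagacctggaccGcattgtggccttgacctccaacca

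On A_52_P668810, the brightest, the iHAC1-iPS clones gave 0.45, 0.33, 0.48 and 0.78, above both ES lines (-0.25 and 0.00) and above all iHAC2-iPS clones (-0.17, -0.04, -0.05 and -0.59). Levels in iHAC-free iPS lines were tightly grouped between -0.02 and 0.08, and MEF read 0.57. All 4 probes put the iHAC1-iPS clones above ES cells, by 0.58 to 0.70 with limma adjusted p of 0.0298 to 0.0484, which is under 2-fold and so not called. Against iHAC2-iPS cells the differences were 0.72 to 1.04 with adjusted p of 0.00084 to 0.0037, and A_52_P136162 alone reached 2-fold (1.04, SE 0.19). That call was lost under normexp correction (0.60) and without 1-D6 (0.99), 2-B1 (0.98) or 2-N (0.89), where the difference was under 2-fold.

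On A_51_P109469, printed on 10 spots, the SD between spots of an array was 0.0452 to 0.0849. The iHAC1-iPS clones differed by more than this from ES cells (0.62) and from iHAC2-iPS cells (0.82). The difference of iHAC-free iPS from ES cells (0.03) was smaller than this SD. Between iHAC-free iPS and ES cells the 4 probes differed by -0.03 to 0.15, with 95% intervals inside -0.42 to 0.58. Fibroblast markers, all 20 of them well above background on every array, had mean levels of 3.42 to 4.32 in the iHAC1-iPS clones, 1.90 to 3.15 in the ES lines, 2.22 to 3.77 in the iHAC2-iPS clones, 3.11 to 3.65 in the iHAC-free iPS lines and 4.57 in MEF. Their part in the Fgfr1 difference was not tested. The genes closest to Fgfr1 were Nedd9 (r = 0.937), Txndc5 (r = 0.936) and Pdzrn3 (r = 0.932).

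Among the feedback genes, Spry2 was called in iHAC1-iPS against ES cells on 1 of its probes, and Dusp6 and Spry4 were not called on their brightest probes. Their transcripts are commonly read as markers of ERK activity, which the arrays do not measure. The Spry2 probes lie at chr14:106291385-106291444 (A_52_P368532) and chr14:106291901-106291960 (A_51_P445153), minus strand, 516 bases apart, and their first 30 bases are shown because the probes disagreed.
A_52_P368532: caggaaacctttattgtaagtctctgattt
A_51_P445153: ccccccttttaacacatatgcaaccaacta

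The brighter, A_52_P368532, gave 3.16 and 2.62 in the ES lines and 0.64, 2.03, 2.48 and 1.46 in the iHAC1-iPS clones. The clones lay below both ES lines, 1-A3 furthest and 1-C3 nearest. The difference was -1.24 (SE 0.40, 2.36-fold lower, limma adjusted p = 0.0470), but the adjusted p was over 0.05 under quantile normalization (0.0546), without the filter on dim probes (0.0578), with a slide block (0.172) and with the compared groups alone in the fit (0.154). It was also lost without B6ES (0.312), TT2 (0.0872), 1-A3 (0.0726) or 1-D6 (0.0941). The iHAC2-iPS clones (1.92 to 2.72) and iHAC-free iPS lines (2.38 to 2.72) overlapped with the ES lines and were not called.

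The dimmer probe gave another pattern. It read 0.27 and 0.11 in the ES lines and -0.37, 0.24, 0.24 and 0.09 in the iHAC1-iPS clones, a difference of -0.14 that was not called. The 8 arrays of iHAC2-iPS and iHAC-free iPS cells all lay between -1.19 and -0.53, and the iHAC-free iPS lines were called lower than ES cells (-1.14, SE 0.21, limma adjusted p = 0.0410). MEF, read with the software version of the ES lines, gave -0.88, inside that range. Apart from MEF, the split follows the software version of the arrays as well as the group. The call was lost in each of the 6 fits that left out 1 array (adjusted p 0.0685 to 0.226). No direction is therefore given for Spry2 in iHAC2-iPS or iHAC-free iPS cells. The genes closest to the brighter probe were Mycn (r = 0.919), Rps6kl1 (r = 0.907) and Lrrn4 (r = 0.905).

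Dusp6, which encodes a cytoplasmic phosphatase of ERK, lay 4.47 to 5.28 log2 units over the 75th percentile of every array except those of 1-A3 and 1-D6. Its levels were 5.28 and 5.15 in the ES lines, 5.20 in MEF and 5.21 in 20D17, at chr10:98729985-98730044 (mm9). The iHAC1-iPS clones split, with 4.84 in 1-B and 4.95 in 1-C3 beside 2.32 in 1-A3 and 3.62 in 1-D6. Their difference from ES cells was -1.28 (SE 0.56, 95% interval -2.49 to -0.07, limma adjusted p = 0.124) and was not called, although without 1-C3 it was -1.62 with an adjusted p of 0.0482 and without 1-A3 it was -0.74 (adjusted p = 0.169). The iHAC2-iPS clones (4.82, 4.70, 4.47 and 4.48) overlapped with the iHAC-free iPS lines (4.61, 4.68, 5.08 and 4.98), with a difference of -0.22 (95% interval -1.21 to 0.77). Dusp6 was followed most closely by Zcchc3 (r = 0.959), Apobec2 (r = 0.947) and Zdbf2 (r = 0.909).

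Spry4, a second Sprouty inhibitor, gave -0.50 and -0.94 in the ES lines and -2.91, -1.72, -1.16 and -1.67 in the iHAC1-iPS clones on its brighter probe. As for Spry2 and Dusp6, 1-A3 was the lowest of the clones and 1-C3 the highest. The difference of -1.15 (95% interval -2.41 to 0.12, limma adjusted p = 0.184) was not called. The iHAC2-iPS clones formed 2 pairs, with -2.16 in 2-B1 and -2.81 in 2-E beside -0.86 in 2-C6 and -0.81 in 2-N, while the iHAC-free iPS lines ranged from -1.67 to -0.63. A dimmer Spry4 probe was well above background only in TT2, 20D17 and 2-N. It was called lower in iHAC1-iPS than in iHAC2-iPS cells (adjusted p = 0.0288), with no iHAC1-iPS clone well above background and a bound of at least 1.06-fold. Etf1 (r = 0.855), Etv4 (r = 0.846) and Ier2 (r = 0.829) were closest to Spry4, and Etv4 and Ier2 are transcripts induced by growth factor signalling.

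To place these genes in the pathway, 77 further genes were followed in 4 lists (FGF ligands, receptors and co-receptors, ERK feedback and target genes, and the Ras-ERK cascade), of which 72 were tested. In iHAC1-iPS against ES cells 6 of the 72 were called higher and 6 lower, beside 7.17% and 7.13% of all probes. In iHAC2-iPS against ES cells 4 were higher and 3 lower (3.52% and 3.28% of all probes). In iHAC1-iPS against iHAC2-iPS cells 4 were higher and 10 lower, where 8.98% of all probes were higher and 11% lower. Both iHAC-free iPS against ES and iHAC2-iPS against iHAC-free iPS cells gave 0 calls in the lists by limma. At an unadjusted p below 0.05 there were 14 and 7 of the 72 genes, beside 6386 and 5738 of all 31415 probes. Wherever the 72 genes held any call, they held calls in both directions.

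Of 15 further ligands tested, 1 was called higher and 1 lower in iHAC1-iPS than in the ES lines (7.17% and 7.13% of all probes), and 3 were higher and 1 lower in iHAC2-iPS than in the ES lines (3.52% and 3.28%). Fgf21, an endocrine ligand, read -3.80 and -5.05 in the ES lines and -7.80 to -7.11 in the iHAC1-iPS clones, none of them well above background. In the iHAC2-iPS clones it read -1.48, -3.88, -2.40 and -1.0. The iHAC1-iPS clones were at least 9.59-fold lower than iHAC2-iPS clones (limma adjusted p = 7.01e-05) and at least 2.04-fold lower than ES cells (adjusted p = 0.00687). The second of these calls was lost under normexp correction, with dim values raised, with a slide block and without B6ES. The iHAC-free iPS lines (-2.70 to -1.55) lay with the iHAC2-iPS clones. Fgf21 was also called higher in iHAC2-iPS clones than in the ES lines (2.23, adjusted p = 0.0486), although the groups overlapped and the call was lost under normexp or quantile normalization, with the compared groups alone and without B6ES, TT2, 2-B1, 2-E or 2-N.

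The other called ligands were mostly the FGF-homologous factors, which stay inside the cell and bind sodium channels rather than receptors. For Fgf14 the iHAC1-iPS clones exceeded the ES lines by at least 1.98-fold (adjusted p = 0.0179), with neither ES line well above background. This call was lost under normexp correction (0.191), with dim values raised (0.165), with a slide block (0.248), with the compared groups alone (0.0536) and without B6ES (0.176). Fgf11 was higher in iHAC2-iPS cells than in the ES lines by 2.19 (adjusted p = 0.0270) and than in iHAC1-iPS cells, which differed from them by -2.63 (adjusted p = 0.00108). The first of these was lost with the compared groups alone (0.152) and without B6ES (0.113), TT2 (0.161) or 2-B1 (0.0548). Fgf11 read -2.20 to -0.26 in the iHAC2-iPS clones and -2.60 to -1.90 in the iHAC-free iPS lines. It read -2.01 in MEF and -4.96 to -2.78 on all other arrays. Apart from MEF, its levels thus parted by software version as well as by group. Fgf13 was higher in iHAC1-iPS than in iHAC2-iPS cells by 1.52 (adjusted p = 0.0158), a call lost under normexp correction (0.72) and with the compared groups alone (adjusted p = 0.0574). Fgf12, called higher in iHAC2-iPS than in the ES lines, and Fgf2, called lower, were not well above background in any iHAC2-iPS clone and are given no fold. For Fgf22, a receptor-binding ligand, the iHAC1-iPS clones were at least 2.18-fold below the iHAC2-iPS clones (adjusted p = 0.00186), which was not called under normexp correction (-0.31). Fgf22 read -5.17 to -3.92 in the iHAC2-iPS clones, -5.36 to -4.27 in the iHAC-free iPS lines and -7.84 to -5.79 on all other arrays. Fgf2 read -6.39 to -5.34 in iHAC2-iPS and iHAC-free iPS cells and -5.30 to -3.86 on all other arrays. Both genes thus parted by software version as well as by group.

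Of 17 receptors and co-receptors, 4 were called higher and 1 lower in iHAC1-iPS than in the ES lines (7.17% and 7.13% of all probes), with a list median of 0.659 beside 0.0409 over all probes. The higher ones included the heparan sulfate proteoglycans Gpc6 (2.18, adjusted p = 0.00748), Sdc2 (1.40, 0.0120) and Sdc1 (1.24, 0.00356), and the lower one was Sdc4 (-1.32, 0.0264). Without B6ES none of these 4 was called (adjusted p of 0.125, 0.158, 0.0628 and 0.30, in that order), and a slide block ended the calls of Gpc6 (0.0657), Sdc2 (0.0629) and Sdc4 (0.128). The Sdc4 call was also lost with the compared groups alone (0.0568) and without 1-A3 (0.0636) or 1-D6 (0.0582). Sdc1 read 3.20, 3.30, 2.83 and 3.50 in the iHAC1-iPS clones and 2.92 in MEF, against 1.78 and 2.16 in the ES lines. The fibroblast marker means given above were also higher in the iHAC1-iPS clones than in the ES lines. They were 3.77 in 2-B1, 3.89 in 20D17 and 3.11 to 3.65 in the iHAC-free iPS lines. Sdc1 read 1.77, 2.19 and 1.75 to 1.94 on those arrays, near the ES lines. The part of these markers in the Sdc1 difference was not tested. Gpc6 was also called higher in iHAC2-iPS than in the ES lines (1.59, adjusted p = 0.0484), a call lost under normexp or quantile normalization, with the compared groups alone and without B6ES, TT2, 2-B1, 2-C6 or 2-E. Fgfr3 was called lower in iHAC2-iPS than in the ES lines (-1.03, SE 0.23, adjusted p = 0.0214). Its difference was under 2-fold with normexp correction (-0.89) and without 2-B1 (-0.85). The call was lost with the compared groups alone (0.152) and without B6ES (0.134) or TT2 (0.10). Fgfr3 read -0.91 to -0.08 in the iHAC2-iPS clones, -0.60 to -0.10 in the iHAC-free iPS lines and -0.03 to 0.71 on all other arrays. Its levels thus parted by software version as well as by group. Fgfr4 was called lower in iHAC1-iPS than in iHAC2-iPS cells (-1.91, adjusted p = 0.0224), with -4.07 to -3.44 in the former and -3.34 to 0.12 in the latter. This call was lost under normexp correction (0.0616), with the compared groups alone (0.0622) and without 1-A3 (0.0528) or 1-D6 (0.0545).

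**Figure D5:**
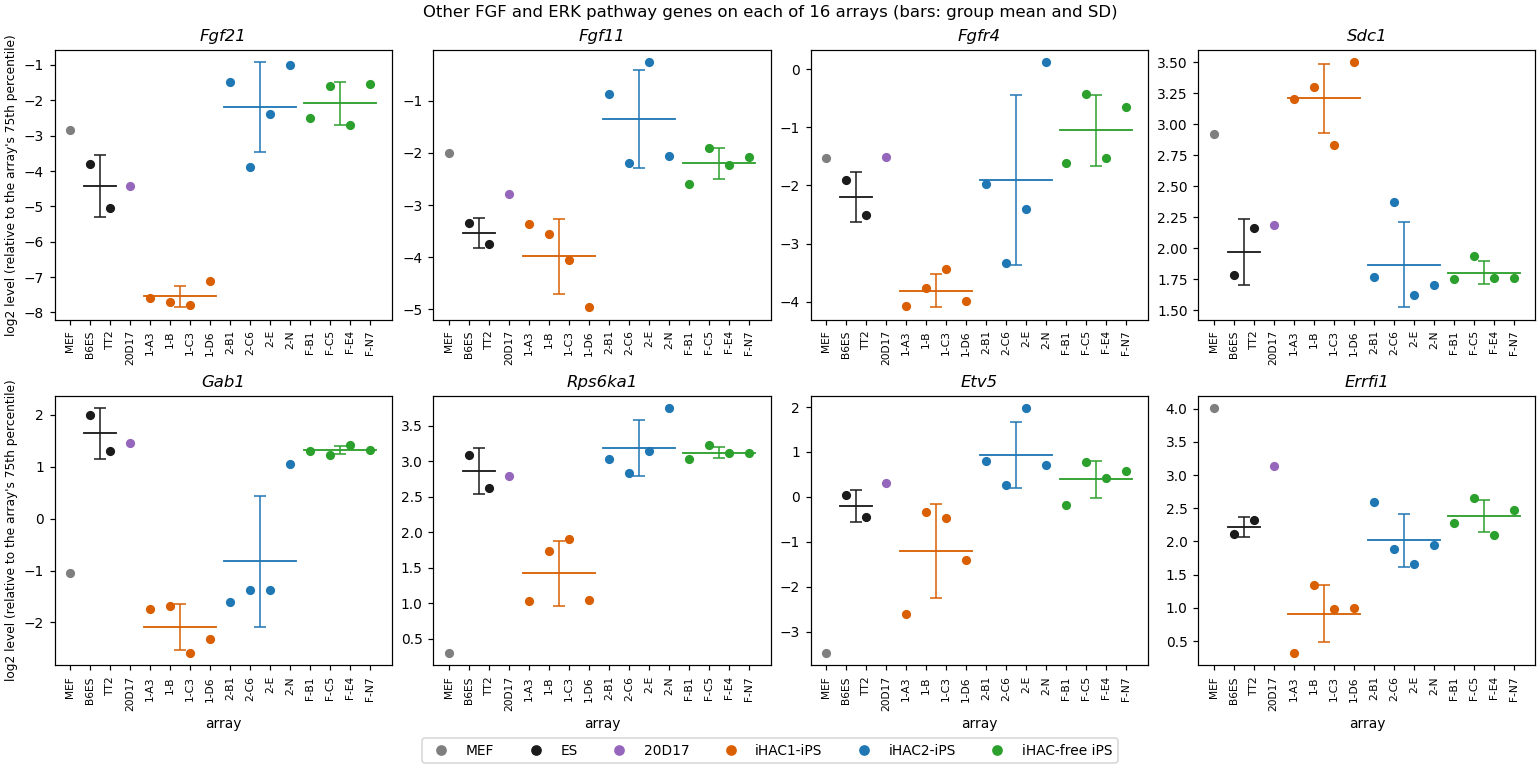
Levels of 8 other pathway genes on the 16 arrays (log2, relative to the 75th percentile), bars giving the mean and SD of groups with more than 1 array. Fgf21 was not well above background in the iHAC1-iPS clones, and Gab1 lay between -2.59 and -1.37 in every clone that kept a vector except 2-N (1.05).

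Among 18 ERK feedback and target genes, 1 was called lower in iHAC1-iPS than in the ES lines (7.13% of all probes) and 3 in iHAC1-iPS than in iHAC2-iPS cells (11%). Errfi1, a feedback inhibitor of the EGF receptor, differed by -1.30 (adjusted p = 0.00981) and -1.11 (adjusted p = 0.00465), respectively. The call against ES cells was lost with a slide block (0.118) and without B6ES (0.0598) or TT2 (0.0746), and the other was under 2-fold without 1-A3 (-0.91) or 2-B1 (-0.92). Etv5, an ETS factor downstream of FGF signalling, read -2.61, -0.33, -0.47 and -1.41 in the iHAC1-iPS clones and 0.27 to 1.98 in the iHAC2-iPS clones, a difference of -2.14 (SE 0.49, adjusted p = 0.00565). Phlda1 differed by -1.31 between the same groups (limma adjusted p = 0.00372). It read 0.47, 1.59, 1.35 and 1.65 in the iHAC1-iPS clones and 1.86 to 2.86 in the iHAC2-iPS clones. The ES lines read 0.04 and -0.45 for Etv5, and 1.55 and 1.81 for Phlda1. Neither gene was called in iHAC1-iPS against ES cells. The clones 1-A3 and 1-D6, the low ones for Dusp6, were also the lower ones for Etv5.

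In the Ras-ERK cascade, 1 of 22 genes was called higher and 3 lower in iHAC1-iPS than in the ES lines (7.17% and 7.13% of all probes). Gab1, an adaptor that couples receptor tyrosine kinases to Ras and phosphoinositide signalling, read 1.99 and 1.30 in the ES lines and -1.74, -1.68, -2.59 and -2.32 in the iHAC1-iPS clones (a difference of -3.73, SE 0.60, 13.3-fold lower, adjusted p = 0.00156). In the iHAC2-iPS clones it read -1.60, -1.37, -1.38 and 1.05, against 1.23 to 1.41 in the iHAC-free iPS lines. The iHAC2-iPS clones were called lower than ES cells (-2.47, adjusted p = 0.0256), and without 2-N the difference was -3.09 (adjusted p = 0.000309). That call was lost without B6ES (0.178), TT2 (0.0934), 2-B1 (0.0507) or 2-E (0.0545), and with the compared groups alone (0.158). The kinase Rps6ka1 differed in iHAC1-iPS cells by -1.44 from ES cells (adjusted p = 0.00584) and by -1.76 from iHAC2-iPS cells (adjusted p = 0.000361), the scaffold Ksr1 by -1.97 (0.0124) and -1.44 (0.0129), and the exchange factor Sos2 was higher than in the ES lines by 1.09 (0.00200). Against ES cells the Rps6ka1 call was lost without B6ES (0.0879), that of Ksr1 under normexp correction (0.0613), with a slide block (0.0664) and without B6ES (0.104) or TT2 (0.0583), and Sos2 was under 2-fold with normexp (0.91). Against iHAC2-iPS cells the Ksr1 call was lost under normexp (0.0655), with the compared groups alone (0.0534) and without 2-N (-0.98, under 2-fold).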

How the data were processed

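RNA of 16 cultures was labelled with Cy3 and hybridized by the authors to 1-colour Agilent whole mouse genome arrays. The deposited scanner files, made with Feature Extraction 10.7.1.1 or 10.7.3.1, give each spot's background-subtracted intensity without scaling between arrays. The deposited value table, normalized by the authors in GeneSpring GX11, holds log2 values centred on each probe's median. Its columns had medians of -0.325 to 0.279 and matched the centred scanner values with r = 1 over 41136 probes, so scale, centring and direction are known, and it served as an alternative.

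Control and outlier spots were left out, spots of a probe averaged as log2 intensity, and the array's 75th percentile subtracted. Probes well above background on at least 1 array were tested (31415) in 1 limma 3.58.1 fit (R 4.3.3) of 6 groups, with Benjamini-Hochberg adjustment per comparison, and the code was tested on simulated data. Depth does not apply to arrays, and their number limits the precision. Tables and plots were made in Python 3.11.15. Of 26746 probes with an NM accession, 26412 were given a current RefSeq symbol, and positions are those of the files (mm9).

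Every member probe is reported, and from each pathway list at most the 4 called genes with the largest differences per comparison, and for each member the 3 genes with the highest r among genes well above background on at least 8 arrays. The members and lists were chosen with earlier results of these data known.

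The iHAC2-iPS clones and the iHAC-free lines sorted from them are pairs of the same line per the study's methods. Deviations from the group means of same-line arrays correlated with r = -0.066, -0.219, 0.0344 and 0.08, and those of other pairs with r = -0.105 to 0.216. Alternatives were normexp correction, quantile normalization, the value table, other filters on dim probes, slide and line blocks, compared groups only and leaving out each array. Within-slide values were added after the data were seen. The sequence of 1 probe is not reported here.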

Additional observations from a re-analysis of the deposited data

Results flagged for a closer look

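In groups of 4 arrays, 1 array stood far from the other 3 by Dixon's criterion in 6 of 108 groups, where chance gives about 5.4 (1 in 20). None of these was a probe of the 8 FGF genes. Gab1 in 2-N was 1.05 against -1.60 to -1.37 in the other iHAC2-iPS clones. Phlda1 in 2-E was 1.86 against 2.77 to 2.86 in the other iHAC2-iPS clones. Fgf22 in 2-C6 was -5.17 against -4.11 to -3.92, and Fgf12 in 2-B1 was -6.31 against -6.89 to -6.79, although Fgf12 was not well above background there. Fgf13 in 1-A3 was -1.13 against -2.40 to -2.19 in the other iHAC1-iPS clones. Sdc1 in F-C5 was 1.94 against 1.75 to 1.76 in the other iHAC-free iPS lines.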

How the results depend on the processing

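Apart from leaving out arrays, 690 of the probe differences tried under an alternative kept their direction and call, 57 lost the call, 1 gained it and 8 changed sign. The 690 include many differences that were not called as reported and stayed uncalled, so they do not measure how often a call was kept. The changes of sign concerned Fgfr1 in iHAC-free iPS against ES cells (A_51_P109469 -0.00054 with the slide as a block, A_52_P136162 -0.00053 under normexp and -0.01 under quantile normalization), A_51_P432403 of Fgfr2 in the same comparison (-0.15 under normexp, -0.10 under quantile) and in iHAC1-iPS against iHAC2-iPS (-0.22 with dim values raised), and Fgf2 (0.05, dim values raised) and Fgf12 (-0.04, normexp) in iHAC2-iPS against ES cells. Normexp moved the median of all probes to -0.142 in iHAC-free iPS against ES and to 0.148 in iHAC2-iPS against iHAC-free iPS, and reduced differences of dim probes (Fgf17 in iHAC1-iPS against ES cells, -1.25). The count of FGF genes called in iHAC1-iPS against ES cells was 1 in place of 2 under quantile normalization, without the dim filter, with probes well above background on all 16 arrays (6 genes tested), with a slide block and with compared groups only. In iHAC2-iPS against ES cells it was 2 with dim values raised and 0 with compared groups only, in iHAC2-iPS against iHAC-free iPS 0 with the slide and 0 with the line of origin as a replicate block, and in iHAC1-iPS against iHAC2-iPS cells 0 under normexp and 0 with the all-array filter. The block on the line changed no other call of an FGF gene's brightest probe, and it also ended that of the second Fgfr2 probe (-2.27, adjusted p = 0.103). For the pathway lists the counts were 7 (normexp) and 4 (slide block) in place of 12 in iHAC1-iPS against ES, 2 (normexp), 4 (quantile) and 0 (compared groups only) in place of 7 in iHAC2-iPS against ES, 1 (all-array filter) and 1 (slide block) in place of 0 in iHAC-free iPS against ES, and 1 (normexp), 1 (all-array filter) and 1 (dim values raised) in place of 0 in iHAC2-iPS against iHAC-free iPS. The cause was not tested. Leaving out 1 array at a time gave 1 to 3 FGF genes in iHAC1-iPS against ES (1 without B6ES, TT2 or 1-D6), 0 to 1 in iHAC2-iPS against ES (0 without B6ES or TT2), 0 to 0 in iHAC-free iPS against ES, 0 to 2 in iHAC2-iPS against iHAC-free iPS (2 without 2-N, 0 without any other) and 1 to 2 in iHAC1-iPS against iHAC2-iPS cells (2 without 1-B). For the lists it gave 3 to 14, 0 to 10, 0 to 0, 0 to 3 and 12 to 21, in the same order, the lowest of the first 2 without B6ES (and 0 also without TT2), with 3 without 2-B1 and 4 without 2-E in iHAC2-iPS against ES and 3 without 2-N in iHAC2-iPS against iHAC-free iPS. Without 1 array the sign changed for Fgf15 in iHAC1-iPS against ES (-0.30 to 0.69), for Fgf5 in iHAC-free iPS against ES (-1.55 to 0.91) and iHAC1-iPS against iHAC2-iPS (-1.36 to 1.55, with -0.56 without 1-B and -0.91 without 1-C3), for Fgfr1 in iHAC-free iPS against ES (A_51_P109469 -0.11 to 0.18, A_52_P136162 -0.09 to 0.25, A_52_P552062 -0.12 to 0.06) and in iHAC2-iPS against ES (A_52_P668810 -0.21 to 0.04), for Fgfr2 in iHAC-free iPS against ES (A_51_P432403 -0.45 to 0.52, with -0.08 without F-C5, A_52_P363110 -0.33 to 0.58) and for Spry4 in iHAC1-iPS against iHAC2-iPS (-0.59 to 0.14, with 0.08 without 2-N). The signal over background limits Fgf17 in iHAC1-iPS clones and the dimmer Fgfr2 probes.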
